A study of Homo sapiens with 5 samples.

Results

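Chromosome 9 carried 2751 of the 30372 peaks of steroidogenic factor-1 (SF-1) over 4 lists. The members were chosen by their position in the deposited lists: every peak placed on chromosome 9 of hg19, more than 1 Mb from any run of at least 1 Mb of unknown bases (N). They numbered 329 of 4393 peaks (7.49%) for basal SF-1 and 1091 of 11910 (9.16%) for overexpressed SF-1 with the Millipore antibody, and 619 of 6616 (9.36%) and 712 of 7453 (9.55%) with the Perseus antibody. The chromosome holds 1 such run, chr9:47317680-65467679, 18.15 Mb long, which takes in the centromere and separates the short arm (9p) from the long arm (9q). At the distance of 1 Mb, the nearest peak kept in the basal Perseus list lay 1005 kb from the run and the nearest left out 995 kb, with ranks 165 and 96; in the overexpressed Perseus list these distances were 1005 kb and 997 kb, with ranks 2639 and 6537. No Millipore peak lay near enough to be left out, and the closest were 2442 kb (basal) and 2438 kb (overexpressed) away.

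SF-1 is a nuclear receptor that binds DNA as a monomer, through a hormone response element half-site with an extension on its 5′ side, and that controls genes of steroid hormone synthesis and of adrenal and gonadal development. It is encoded by NR5A1, which lies on chromosome 9 itself, at 9q33, next to NR6A1, the gene of the related germ cell nuclear factor. NRSF/REST is a zinc finger repressor that binds a long composite element and keeps neuronal genes silent outside neurons. Chromosome 9 is known for a large block of repeated DNA beside its centromere and for duplicated segments on either side of it, where short reads are hard to place.

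Chromatin immunoprecipitation and sequencing was done in H295R/TR SF-1 cells, a line made from the human adrenocortical tumor line H295R that produces additional SF-1 when doxycycline is given. The basal groups received no doxycycline and the overexpressed groups received it for 3 days, and each was precipitated with 2 SF-1 antibodies, Millipore and Perseus. The peaks of each group were called by the authors on 3 libraries together, so each group is 1 list without replicate error, and 2 libraries of input DNA have no list of their own. Intervals below are 95% intervals, given in parentheses or after a value, that cover counting error over peaks only and treat peaks as independent; the depth of the libraries is unknown from the lists, and a peak's rank counts from 1 at the head of its list. Where 4 values stand in a row they follow the order basal Millipore, overexpressed Millipore, basal Perseus, overexpressed Perseus.

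The sequences that follow are given for 8 sites on 9p and 9q, read from the plus strand of GRCh37 (hg19), 5′ to 3′. Capitals mark matches to the SF-1 consensus, which is the core CAAGGTC or CAAGGCC with C or T before it and A or G after it, on either strand. The first pair below shows instead, in capitals, the stretch closest to the NRSF/REST consensus. These were the best-ranked and the next best-ranked chromosome 9 peaks of the basal Millipore list, with 4 and 3 mismatches at the 19 fixed positions of that consensus and with no SF-1 consensus.
Best-ranked site, intron of a long non-coding RNA gene, chr9:128845047-128845246: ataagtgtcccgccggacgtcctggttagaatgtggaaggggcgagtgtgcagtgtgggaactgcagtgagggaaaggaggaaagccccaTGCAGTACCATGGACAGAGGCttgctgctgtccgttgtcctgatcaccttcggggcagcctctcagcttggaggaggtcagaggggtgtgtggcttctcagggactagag
Second site, intergenic, 108851 bp from the LHX2 start, chr9:126872667-126872866: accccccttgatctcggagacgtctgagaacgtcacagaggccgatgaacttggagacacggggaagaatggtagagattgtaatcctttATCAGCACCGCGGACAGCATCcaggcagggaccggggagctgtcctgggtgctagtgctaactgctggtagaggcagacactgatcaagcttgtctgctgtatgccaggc
The next group shows SF-1 consensus copies in high-ranked sites within introns. The RORB copy lies on the minus strand, the ROR2 copy on the plus strand, and the PAX5 site has 2 copies on the plus strand.
RORB intron, place 3 of the basal Millipore list on this chromosome, chr9:77296860-77297059: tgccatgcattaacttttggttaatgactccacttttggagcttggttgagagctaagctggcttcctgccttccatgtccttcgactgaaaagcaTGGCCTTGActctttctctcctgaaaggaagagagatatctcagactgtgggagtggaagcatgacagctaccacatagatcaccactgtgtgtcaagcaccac
ROR2 intron, found in all 4 lists, chr9:94489561-94489760: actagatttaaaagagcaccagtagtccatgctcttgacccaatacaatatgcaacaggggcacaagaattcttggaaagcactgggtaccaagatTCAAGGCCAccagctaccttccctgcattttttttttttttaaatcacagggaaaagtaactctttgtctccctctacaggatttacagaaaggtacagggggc
PAX5 intron, found in all 4 lists, chr9:36872404-36872603: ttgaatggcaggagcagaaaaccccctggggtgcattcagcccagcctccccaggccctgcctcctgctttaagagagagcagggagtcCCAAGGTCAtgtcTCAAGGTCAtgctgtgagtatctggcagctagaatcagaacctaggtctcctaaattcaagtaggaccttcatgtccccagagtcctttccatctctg
The last group comes from the surroundings of NR5A1. The first 2 are the peaks nearest to its transcription start site (TSS) in their lists and had no SF-1 consensus, while the site shared by 3 lists had 2 copies on opposite strands.
NR5A1 upstream, basal Millipore, chr9:127270551-127270749: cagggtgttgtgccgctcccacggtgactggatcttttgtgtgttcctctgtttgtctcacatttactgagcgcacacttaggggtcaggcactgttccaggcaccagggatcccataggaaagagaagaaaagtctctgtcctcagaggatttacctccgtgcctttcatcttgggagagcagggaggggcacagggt
NR5A1 start, overexpressed Perseus, chr9:127269701-127269799: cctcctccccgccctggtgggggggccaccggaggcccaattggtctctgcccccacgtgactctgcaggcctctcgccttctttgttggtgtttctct
Downstream of NR5A1 and upstream of PSMB7, 3 lists, chr9:127191551-127191699: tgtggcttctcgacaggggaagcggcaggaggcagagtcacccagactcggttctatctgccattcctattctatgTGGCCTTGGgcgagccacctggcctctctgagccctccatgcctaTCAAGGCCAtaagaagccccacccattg

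SF-1 peaks were dense on chromosome 9 in every list. Over 118.49 Mb of known sequence there were 2.78, 9.21, 5.22 and 6.01 peaks per Mb. Chromosome 9 took place 2 of the 22 autosomes in each of the 4 lists, behind chromosome 19. The density relative to the other autosomes together was 1.76 (1.57 to 1.97), 2.20 (2.06 to 2.34), 2.34 (2.15 to 2.54) and 2.37 (2.19 to 2.56). The autosome in place 3 was chromosome 15 in 3 lists, at 1.34 (1.14 to 1.56) in the basal Millipore, 1.67 (1.49 to 1.87) in the basal Perseus and 1.74 (1.56 to 1.93) in the overexpressed Perseus list, so its interval did not reach that of chromosome 9 there. In the overexpressed Millipore list it was chromosome 22, at 2.04 (1.81 to 2.28), and the intervals overlapped. In GC content chromosome 9 had place 10 among the autosomes (41.3%) and in TSS of protein-coding genes place 12 (6.71 per Mb), whereas chromosome 19 stood first in peaks with a GC content of 48.7% and 27.3 TSS per Mb.

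**Figure D1:**
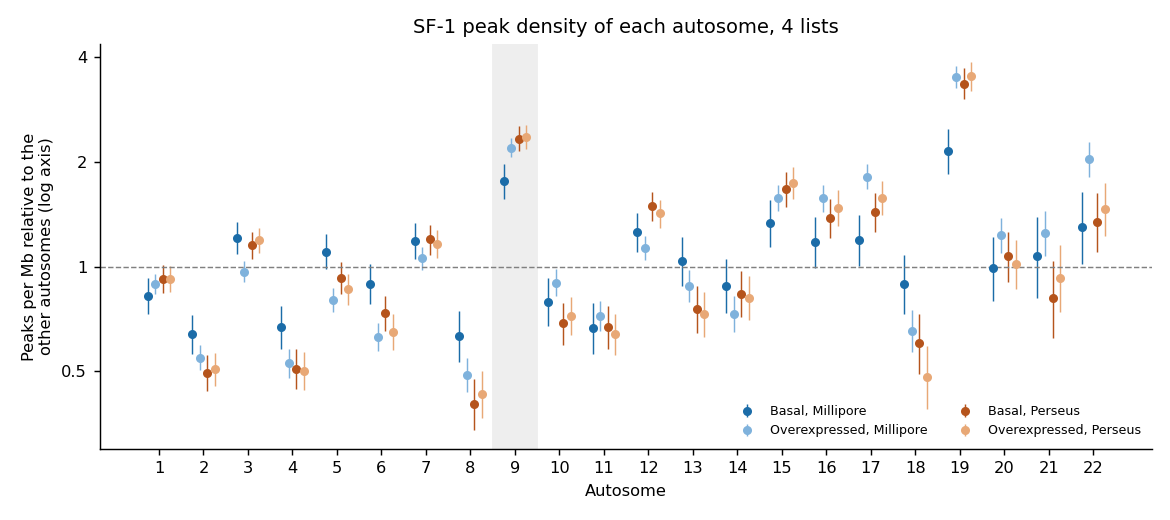
Peaks per known Mb of each autosome relative to all other autosomes together (vertical log axis) in the 4 lists, with 95% exact intervals for a ratio of 2 counts; the grey band marks chromosome 9, which lies at 1.76 to 2.37 in the 4 lists and below chromosome 19 only.

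The excess lay on the long arm. On 9q the density was 3.75 (3.32 to 4.22), 13.3 (12.5 to 14.2), 7.49 (6.87 to 8.14) and 8.71 (8.04 to 9.41) peaks per Mb. On 9p it was 1.21 (0.911 to 1.57), 2.64 (2.19 to 3.16), 1.58 (1.24 to 1.99) and 1.67 (1.32 to 2.09). The long arm thus exceeded the short arm 3.10 times (2.31 to 4.22), 5.04 times (4.16 to 6.14), 4.73 times (3.69 to 6.13) and 5.21 times (4.10 to 6.70). Set against the other autosomes, 9q stood at 2.38, 3.17, 3.35 and 3.43 times their density, with a lowest lower bound of 2.10. The short arm stood below them, at 0.769 (0.578 to 1.00), 0.630 (0.522 to 0.755), 0.709 (0.554 to 0.894) and 0.658 (0.518 to 0.825), and the interval reached 1 in the basal Millipore list. The long arm is also richer in GC (42.8% against 39.0%) and in TSS (7.78 against 4.99 per Mb).

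In 5 Mb bins the peaks formed a low plain on 9p, a raised plain on most of 9q and a steep rise toward the 9q end. The 24 bins with at least 2.5 Mb of known sequence were set against 510 such bins of the other autosomes. The stretch of 9q beyond 140 Mb is shorter than that and formed no bin. It was not sparse: in the overexpressed Perseus list the 1 Mb from 140 to 141 Mb held 37 peaks. The median bin of chromosome 9 held 2.70, 5.26, 4.4 and 4.8 peaks per Mb, against 1.40, 3.00, 1.63 and 1.80 elsewhere. Of the 24 bins, 18, 16, 17 and 18 lay above the median of the other autosomes, and 11, 9, 11 and 9 above their 90th percentile, which was 2.80, 8.80, 4.80 and 5.60 peaks per Mb.

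The bins at 130 to 135 Mb and at 135 to 140 Mb, in 9q34, were the densest and the next densest of all 534 autosomal bins in each of the 4 lists. The bin at 130 to 135 Mb held 37, 196, 86 and 110 peaks, or 7.63, 40.4, 17.7 and 22.7 per Mb, and had 95 TSS at 50.3% GC. The bin at 135 to 140 Mb held 37, 240, 73 and 98 peaks, or 7.55, 49.0, 14.9 and 20.0 per Mb, with 103 TSS at 54.0% GC. No bin of another autosome exceeded 6.24, 25.1, 13.2 and 14.4 peaks per Mb. Within 9q34 the densest 1 Mb was the same in every list, at 139 to 140 Mb, with 13, 83, 31 and 43 peaks, 46 TSS and 59.0% GC; NOTCH1, ABCA2 and PTGDS lie there. The bin at 125 to 130 Mb, which holds NR5A1, was place 3 of the chromosome with Millipore, at 4.60 and 14.0 peaks per Mb, and in the overexpressed Perseus list, at 11 per Mb, and held 10 per Mb in the basal Perseus list.

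**Figure D2:**
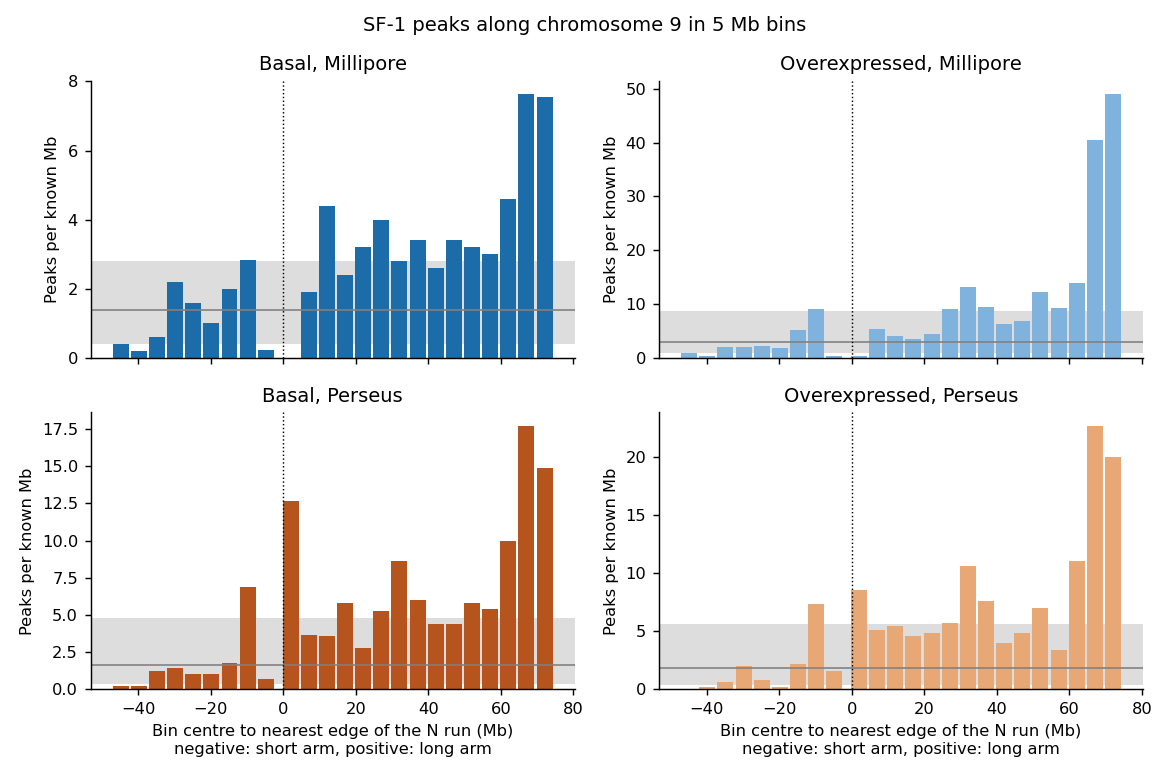
Peaks per known Mb in 5 Mb bins of chromosome 9 (vertical axis from 0, scaled for each list) against the distance in Mb of the bin's centre from the nearest edge of the long N run, short arm negative and long arm positive. The grey line and band are the median and the 10th to 90th percentile of 510 bins of the other autosomes. The last 2 bins drawn, from 130 to 140 Mb, rise to 7.63, 49.0, 17.7 and 22.7 per Mb at most. The stretch beyond 140 Mb is too short for a bin and is not drawn.

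The sparsest bins were on 9p, apart from the bin next to the N run on 9q. The bin at 5 to 10 Mb held 1, 2, 1 and 1 peaks and the bin at 0 to 5 Mb held 2, 5, 1 and 0. Here, at the tip of 9p, lie DMRT1, a gene of gonad development, and the relaxin genes RLN1 and RLN2. Across 4 lists no peak was found in the 2.73 Mb of chr9:8118950-10853100, where the only protein-coding TSS is that of PTPRD, a receptor tyrosine phosphatase. The longest stretch without a peak in a single list was 7.53 Mb, from 6530550 to 14055600 in the overexpressed Perseus list. The exception on 9p was the bin at 35 to 40 Mb, with 14, 45, 34 and 36 peaks (2.84, 9.14, 6.90 and 7.31 per Mb), 62 TSS and 43.3% GC, in which PAX5 lies.

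The bin at 65 to 70 Mb, whose 2.68 Mb of known sequence borders the N run on 9q, divided the antibodies. It held 0 and 1 peaks in the Millipore lists but 34 and 23 in the Perseus lists, where its density of 12.7 per Mb (8.78 to 17.7) had place 4 of 534 bins at basal dosage and 8.57 at overexpressed dosage. This stretch contains duplicated gene families such as FAM27 and ANKRD20A, and the assignment of short reads among near-identical copies is uncertain there. The best-ranked Perseus peak of the whole chromosome, chr9:66800751-66801049 (rank 28 basal, 30 overexpressed), and chr9:67317751-67317949 (ranks 180 and 80) lie in it. Without this bin the 9q density was 3.89, 13.8, 7.29 and 8.71 per Mb, so the long arm's density did not rest on it.

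GC content and TSS moved with the bin densities. Over the 24 bins, the Spearman correlation of density with GC content was 0.70, 0.81, 0.69 and 0.74, and with TSS per Mb 0.54, 0.79, 0.62 and 0.67; GC content and TSS per Mb themselves had a correlation of 0.80. These points share 1 chromosome and 1 list each. Over the 510 bins of the other autosomes the correlations were lower, with GC content 0.21, 0.74, 0.45 and 0.56. With TSS per Mb they were 0.20, 0.61, 0.49 and 0.55 there. Each chromosome 9 bin was set beside bins of other autosomes within 1 percentage point of its GC content. This comparison was chosen after the bin values had been seen. On 9q, 14, 14, 15 and 15 of 15 bins lay above the median of their like-GC bins, at a median of 2.13, 2.43, 3.38 and 2.86 times that level. On 9p, 4, 5, 1 and 3 of 9 bins did, at medians of 0.833, 1.29, 0.833 and 0.746. The bin at 130 to 135 Mb exceeded all 15 like-GC bins in each of the 4 lists and stood at 4.15, 3.44, 3.69 and 4.12 times their median, and only 2 bins elsewhere resembled the bin at 135 to 140 Mb. The bin at 105 to 110 Mb, with the lowest GC content of 9q (37.8%, 19 TSS), held 13, 32, 22 and 20 peaks, 1.86, 3.56, 3.67 and 2.86 times the median of 103 such bins, of which 6, 0, 3 and 6 were denser. The 9q bin below its like-GC median was that at 65 to 70 Mb (39.2% GC), at 0 and 0.143 times with Millipore and 7.04 and 4.76 times with Perseus.

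**Figure D3:**
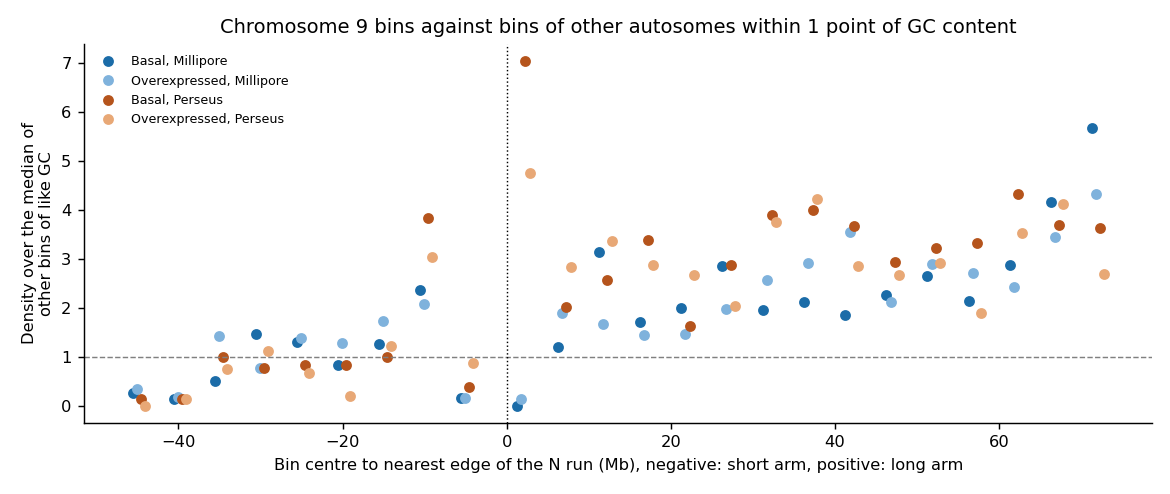
Density of each chromosome 9 bin divided by the median density of the bins of other autosomes within 1 percentage point of its GC content (vertical axis), against the distance in Mb from the long N run, short arm negative and long arm positive, for the 4 lists. All 15 long arm bins lie above 1 in both Perseus lists and 14 in both Millipore lists, against 1 to 5 of the 9 short arm bins.

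With doxycycline the Millipore list gained peaks along nearly the whole chromosome, and the Perseus list gained few. From basal to overexpressed dosage 22 of 24 bins held more Millipore peaks, beside 86.3% of the 510 other bins. For Perseus it was 15 of 24 bins, beside 53.5%. In peaks, chromosome 9 grew 3.32 times in Millipore (2.66 times on the other autosomes) and 1.15 times in Perseus (1.14 times). The Millipore growth was uneven along the chromosome. Among the 19 bins with at least 5 basal peaks it ranged from 0.909 at 15 to 20 Mb to 6.49 at 135 to 140 Mb, with a median of 2.60, and the bin at 75 to 80 Mb went from 22 peaks to 20. The share of autosomal Millipore peaks on chromosome 9 was 7.64% at basal and 9.35% at overexpressed dosage, an odds ratio of 1.25, whereas Perseus shares were 9.88% and 9.98%, an odds ratio of 1.01. The ratio of these odds ratios was 1.23 (1.04 to 1.46).

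Peaks of chromosome 9 stood high in their lists. The best-ranked 25% of each whole list took 34.7%, 34.7%, 35.2% and 37.8% of the chromosome 9 peaks. Other autosomes had 24.2%, 24.1%, 22.6% and 22.6%, and the differences of 10.5 (5.37 to 15.9), 10.6 (7.76 to 13.6), 12.6 (8.75 to 16.6) and 15.2 (11.6 to 18.98) percentage points exceeded counting error in all 4. The median chromosome 9 peak lay 36.7%, 39.8%, 38.4% and 35.9% of the way down its list. By arm, this best-ranked 25% took 38.0% of 9q and 18.2% of 9p peaks in the basal Millipore list, a difference of 19.8 points (6.42 to 29.7). In the other 3 lists the arms differed by 4.39 (-4.84 to 12.5), 11.6 (-0.206 to 21.1) and 2.52 (-9.28 to 13.1) points, each within counting error. The quantity the ranks were made from is not stated by the sources used here.

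A peak of chromosome 9 was more often found again in another list than a peak elsewhere. Counting an overlap of at least 1 bp, 55 of 329 basal Millipore peaks (16.7%) met an overexpressed Millipore peak, against 11.9% on the other autosomes, a difference of 4.85 points (1.06 to 9.37). In the overexpressed Millipore list it was 55 of 1091 (5.04%) against 4.44%, a difference of 0.600 points (-0.618 to 2.11), within counting error. Perseus peaks met the other dosage in 216 of 619 cases (34.9%) at basal dosage against 27.5%, and in 215 of 712 (30.2%) at overexpressed dosage against 24.3%, differences of 7.36 (3.53 to 11.4) and 5.93 (2.50 to 9.55) points. On this chromosome the share kept between dosages was 18.2 points (12.5 to 23.5) higher with Perseus than with Millipore at basal dosage and 25.2 points (21.6 to 28.8) higher at overexpressed dosage.

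Between the antibodies, 53 basal Millipore peaks (16.1%) met a basal Perseus peak, against 11% elsewhere, and 52 basal Perseus peaks (8.40%) met a basal Millipore peak, against 7.72%. At overexpressed dosage 170 Millipore peaks (15.6%) met a Perseus peak, against 11%, and 172 Perseus peaks (24.2%) met a Millipore peak, against 18.3%. The differences from the other autosomes were 5.12 (1.41 to 9.58), 0.681 (-1.39 to 3.22), 4.54 (2.42 to 6.88) and 5.84 (2.69 to 9.25) points, so that the basal Perseus share was within counting error. Peaks were also denser on chromosome 9 (1.76 to 2.37 times), and the part of density in the sharing was not tested. No difference in sharing between 9q and 9p exceeded counting error in any list, with the dosage shares of the basal Perseus list, 36.2% and 25%, the furthest apart at 11.2 points (-0.568 to 20.7).

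When overlapping peaks were merged, chromosome 9 had 2227 sites. A single list held 1845 of them (82.8%), against 87.0% of the sites on other autosomes; 274 were in 2 lists, 87 in 3 and 21 in all 4 (0.943%, 0.618 to 1.44, against 0.634%). The SF-1 consensus became more frequent with the number of lists: it lay in 9.86% of the sites of 1 list, 22.99% of those of 2, 44.8% of those of 3 and 17 of the 21 sites of all 4 (81.0%). Merged sites grew wider in the same order, with median widths of 149, 249, 349 and 399 bp. Of the 21 sites, 4 were among the 267 sites of 9p (1.498%, 0.584 to 3.79) and 17 among the 1960 of 9q (0.867%, 0.542 to 1.38), with overlapping intervals.

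The 5 sites found in all 4 lists with the best worst rank lay at GFI1B, RBM18, ROR2, GLIPR2 and PAX5. The site chr9:135819751-135820299, in an exon of GFI1B, a blood cell transcription factor, and beside TSC1, a growth regulator, had ranks 15 and 202 with Millipore and 122 and 480 with Perseus (basal, overexpressed). The site at the start of RBM18 and in an exon of MRRF, chr9:125027001-125027399, had ranks 47, 664, 108 and 594 in that order and no SF-1 consensus. The ROR2 site ranked 271, 1003, 144 and 650, the GLIPR2 site, chr9:36163251-36163599, ranked 222, 40, 551 and 820, and the PAX5 site with its 2 consensus copies ranked 317, 39, 1017 and 806. Both 9p sites thus came to ranks 40 and 39 in the overexpressed Millipore list.

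The heads of the lists differed by antibody. The NRSF/REST-type site of chr9:128844901-128845349 was rank 1 of the entire basal Millipore list and rank 3 of the overexpressed one, and that of chr9:126872601-126872999 had ranks 5 and 4; neither had a Perseus peak at either dosage. A sequence of the NRSF/REST type occurred in 2, 6, 1 and 1 of the chromosome 9 peaks (0.608%, 0.550%, 0.162% and 0.140%), beside 1.16%, 0.756%, 0.177% and 0.296% elsewhere. Of the 658, 2180, 1237 and 1423 windows of the same width 5 kb to each side, 0, 2, 1 and 1 had it (0%, 0.0917%, 0.0808% and 0.0703%). The 4 other Millipore peaks with it were of overexpressed dosage only and included BARHL1, a homeobox gene of neurons (chr9:135457301-135457999, rank 211), whose start also had Perseus peaks of ranks 1267 and 862. It was the only NRSF/REST-type site of the Perseus lists on this chromosome. The RORB intron site ranked 13 in the basal Millipore list, was absent from the overexpressed Millipore list and ranked 3756 and 1537 with Perseus. Near the head of the overexpressed Perseus list lay an exon close to the start of VAV2, a guanine nucleotide exchange factor (rank 79, and 9334 in the overexpressed Millipore list). In the basal Perseus list TPRN (rank 91), with an SF-1 consensus, and CTSL (rank 94), the gene of cathepsin L, followed the site near the N run.

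The SF-1 consensus was present in 60, 133, 129 and 119 peaks (18.2%, 12.2%, 20.8% and 16.7%). Peaks of the other autosomes had it in 15.7%, 10.8%, 22.6% and 17.9%, and no difference exceeded counting error (2.53, 1.39, -1.81 and -1.20 points). Windows of the same width 5 kb to each side had it in 1.37%, 2.16%, 1.62% and 1.12%, so the chromosome 9 peaks carried it 13.3, 5.65, 12.9 and 14.9 times as often. Between the Millipore lists the share differed by -6.05 points (-10.9 to -1.72), lower at overexpressed dosage, and within the Perseus lists the difference of -4.13 points (-8.36 to 0.0690) reached 0. The lists differ in length. With all lists shortened to 4393 peaks the shares at basal and overexpressed dosage were 18.2% and 16.7% for Millipore and 23.2% and 17.9% for Perseus. From the best-ranked to the last 25% of the list the share was 27.2%, 16.7%, 7.25% and 16.0% for basal Millipore, 19.8%, 8.24%, 8.93% and 7.24% for overexpressed Millipore, 22.02%, 25%, 19.9% and 12.5% for basal Perseus and 19.3%, 16.8%, 16.4% and 11.02% for overexpressed Perseus. The intervals of the first and the last 25% were apart in the overexpressed Millipore list (16.1 to 24.1 and 4.51 to 11.4) and overlapped in the other 3. A match describes these letters and not a bound site.

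Peaks near gene starts separated the lists more than chromosome 9 separated from the rest. No more than 1 kb from a protein-coding TSS lay 17, 135, 154 and 181 peaks (5.17%, 12.4%, 24.9% and 25.4%). The other autosomes had 4.07%, 12.8%, 27.7% and 27.7%, and the differences lay within counting error. From basal to overexpressed dosage the share rose by 7.21 points (3.74 to 10.04) in Millipore, while in Perseus it moved by 0.543 points (-4.15 to 5.19). Between the arms only the overexpressed Millipore share differed beyond counting error, at 19.2% on 9p and 11.5% on 9q (difference -7.63 points, -15.8 to -1.22). The median distance to the nearest TSS was 51.9 kb, 20.5 kb, 20.7 kb and 16.2 kb. Introns of protein-coding genes held 44.1%, 46.2%, 36.3% and 40.4% of the peaks and intergenic sequence 35.9%, 28.9%, 32.0% and 33.7%, while exons of coding genes held 6.38% in the basal Millipore list and 15.9%, 16.96% and 16.6% in the others.

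**Figure D4:**
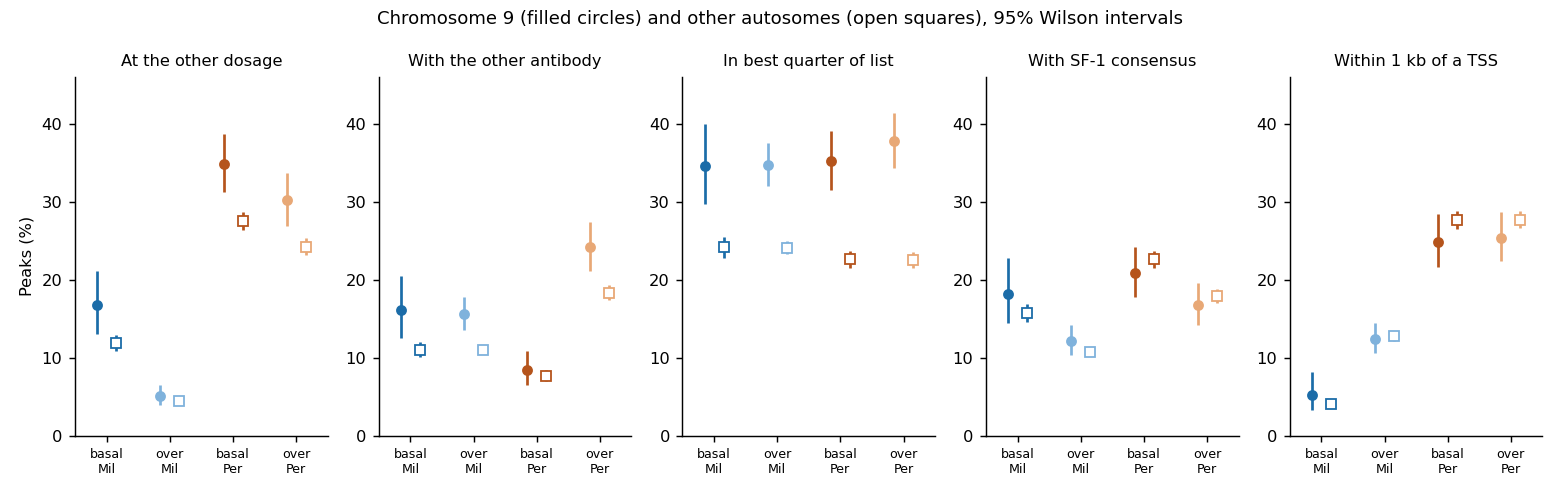
Shares of peaks in percent (vertical axis) for the 4 lists (horizontal axis) that overlapped a peak of the other dosage, overlapped a peak of the other antibody, lay in the best-ranked 25% of the list, held the SF-1 consensus or lay within 1 kb of a TSS, on chromosome 9 (filled circles) and the other autosomes (open squares), with 95% Wilson intervals. Chromosome 9 is higher by 10.5 to 15.2 points in the best-ranked 25%, and its consensus and TSS shares lie within counting error of the other autosomes.

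The genes of the chromosome often had an SF-1 peak within 100 kb of their start: 387, 641, 524 and 565 of 795 genes (48.7%, 80.6%, 65.9% and 71.1%). On the other autosomes, where 18300 genes were counted, it was 31%, 62.9%, 48.2% and 52.5%, and the differences were 17.7 to 18.6 points with a lowest lower bound of 14.2. Again the arms parted. Of 568 genes on 9q, 58.3%, 87.9%, 80.3% and 83.6% had a peak, and of 227 genes on 9p 24.7%, 62.6%, 30.0% and 39.6%. All 4 lists had a peak near 289 genes (36.4%, against 14.8% elsewhere) and none near 81 genes (10.2%, against 18.0%). Neighbouring genes share peaks and are not independent. The genes with the most peaks within 100 kb were PTPA, CRAT and IER5L with 26 each in the overexpressed Millipore list, TPRN, TMEM203 and NDOR1 with 17 each in the basal Perseus list, and RNF208 and CYSRT1 among those with 21 in the overexpressed Perseus list.

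NR5A1 itself (chr9:127243515-127269699, minus strand) lay among peaks but had none that all lists shared at its start. Within 100 kb of its TSS there were 2 basal Millipore, 6 overexpressed Millipore, 3 basal Perseus and 5 overexpressed Perseus peaks, where the median gene of chromosome 9 had 0, 2, 1 and 2. More peaks were counted at 79, 208, 163 and 135 of the 795 genes, and as many or more, NR5A1 included, at 199, 223, 248 and 164. The 795 genes take in those of 9p, where fewer had a peak, whereas NR5A1 lies on 9q. The peaks nearest to the TSS were 4 different ones. In the basal Millipore list it was centred at -951 bp, upstream of the gene (chr9:127270551-127270749, rank 795). In the overexpressed Millipore list it was at 524 bp in an intron (chr9:127269101-127269249, rank 7317), with others at 6874 bp and 19599 bp inside the gene. The overexpressed Perseus list had a peak at -51 bp (chr9:127269701-127269799, rank 6983) and an intronic peak at 2224 bp (chr9:127267351-127267599, rank 1909). The basal Perseus list had none closer than 41224 bp, in an exon of ADGRD2 (chr9:127228351-127228599, rank 3479), with 1 SF-1 consensus. None of the peaks within the body of NR5A1 or upstream of it within 100 kb held the SF-1 consensus.

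The site printed above that holds 2 consensus copies, chr9:127191551-127191699, lay 78074 bp downstream of the NR5A1 TSS and at -13902 bp from the TSS of PSMB7, the gene of a proteasome subunit. It had a peak in the basal Millipore (rank 1800), basal Perseus (rank 4549) and overexpressed Perseus (rank 5054) lists. A neighbouring site at chr9:127190901-127191049, without a consensus, was found with both antibodies at overexpressed dosage (ranks 5998 and 2795). These were the only positions within 100 kb of the NR5A1 TSS that more than 1 list shared.

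Over 1 Mb to each side of the TSS the lists held 11, 30, 24 and 34 peaks. This was 5.50 (2.75 to 9.84), 15 (10.1 to 21.4), 12 (7.69 to 17.9) and 17 (11.8 to 23.8) per Mb. The chromosome as a whole had 2.78, 9.21, 5.22 and 6.01, its long arm 3.75, 13.3, 7.49 and 8.71, and the bin at 125 to 130 Mb 4.60, 14.0, 10 and 11. The basal Millipore interval took in all of these values, and the overexpressed Millipore interval those of the arm and the bin. In each list a group of peaks lay between -301 and -434 kb, upstream of NR5A1 and beyond NR6A1, as far as GOLGA1, while the body of NR6A1 held 0, 1, 4 and 2 peaks. WDR38, RPL35 and ARPC5L, which lie side by side and share most of their peaks, had 7 basal Millipore peaks within 100 kb, the largest number for any gene of the chromosome in that list, and 11 in the overexpressed Millipore list. Near GOLGA1, the gene of a Golgi protein, all 4 lists had a peak from -433 to -434 kb, with ranks 1239, 869, 153 and 211. Of the 10 protein-coding genes within 500 kb of the NR5A1 TSS, 9 had a peak within 100 kb in all 4 lists, beside 289 of all 795 genes (36.4%). The exception was NEK6, with 5 overexpressed Millipore peaks and none in the other lists. These neighbours share peaks and are not independent: the 10 genes together had 9, 24, 15 and 20 distinct peaks within 100 kb.

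**Figure D5:**
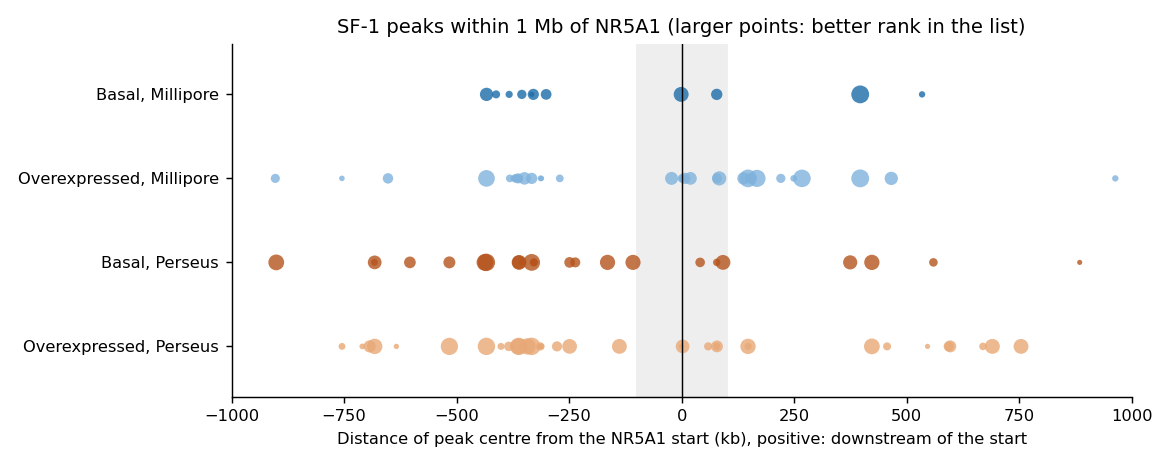
Peaks of the 4 lists within 1 Mb of the NR5A1 start, by distance in kb (horizontal axis, positive downstream of the start, that is toward PSMB7); larger points stand higher in their list and the grey band spans 100 kb to each side. The band holds 2, 6, 3 and 5 peaks, and each list has a group of peaks between -301 and -434 kb.

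The gene lists that follow were set by function, and the counts say where peaks lay, not which gene they act on. The shares to read them against are those of all 795 genes of the chromosome, 48.7%, 80.6%, 65.9% and 71.1%, and of its arms, given before. Of the 5 nuclear receptor genes, all on 9q, 3, 5, 4 and 5 had a peak within 100 kb (60%, 100%, 80% and 100%), where all 9q genes had 58.3%, 87.9%, 80.3% and 83.6%. NR4A3, an orphan receptor induced by many stimuli, had a peak at -412 bp in the overexpressed Millipore list (rank 1714), at -1987 bp in the basal Perseus list (rank 424) and at 488 bp in the overexpressed Perseus list (rank 2387), and none closer than -92462 bp in the basal Millipore list. RORB, a retinoic acid receptor-related orphan receptor, had a peak at 1349 bp in the overexpressed Millipore list (rank 183) and at 9024 bp in the overexpressed Perseus list (rank 3484). The basal lists had none within 100 kb of its TSS. Farther inside the gene they did have peaks, the nearest at 108849 bp with Millipore (rank 105) and 184699 bp with Perseus (rank 3756). The gene body held 2, 1, 1 and 2 peaks. RXRA, the shared partner of many receptors, had 0, 9, 1 and 2 peaks within 100 kb, none within 10 kb.

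Of 8 genes of steroid and lipid handling, 6, 7, 5 and 6 had a peak within 100 kb (75%, 87.5%, 62.5% and 75%, beside 48.7%, 80.6%, 65.9% and 71.1% of all chromosome 9 genes). In this list 7 genes lie on 9q, where all genes had 58.3%, 87.9%, 80.3% and 83.6%. PTGDS, a prostaglandin D synthase, had a peak within 10 kb in all 4 lists, at 2181, 3181, 3081 and 3081 bp. HSD17B3, the testicular enzyme that makes testosterone, had peaks at -2317, 8408 and 8483 bp in the overexpressed Millipore and the Perseus lists. ABCA2, a lipid transporter, lay in the densest 1 Mb and had 2, 24, 8 and 9 peaks within 100 kb. SPTLC1, a subunit of the enzyme that begins sphingolipid synthesis, had peaks within 10 kb with Millipore, at -7180 and -3905 bp. VLDLR, a lipoprotein receptor on 9p, was without a peak within 100 kb throughout.

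Of 10 genes of gonad and adrenal development, 2, 5, 3 and 3 had a peak within 100 kb (20%, 50%, 30% and 30%). In this list 7 genes lie on 9p, where all genes had 24.7%, 62.6%, 30.0% and 39.6%, and of the 3 on 9q 2, 3, 3 and 3 had a peak. PTCH1, the hedgehog receptor, was the member with peaks within 10 kb in more than 1 list, at 9614 bp (rank 840) and 9239 bp (rank 4576) with Perseus. DMRT1 and the relaxin family genes INSL4, INSL6, RLN1 and RLN2, all on distal 9p, were without a peak within 100 kb throughout. Among 7 exchange factors 2, 6, 4 and 4 genes had a peak (28.6%, 85.7%, 57.1% and 57.1%, beside 48.7%, 80.6%, 65.9% and 71.1% of all genes). Of these exchange factors 6 lie on 9q, where all genes had 58.3%, 87.9%, 80.3% and 83.6%. RALGDS, which activates Ral, had peaks within 1346 bp of its TSS in all 4 lists. VAV2 had peaks at 401 and 476 bp, both of overexpressed dosage, and none within 100 kb at basal dosage. Its long gene body nevertheless held 0, 22, 3 and 3 peaks, the nearest basal Perseus peak at 107301 bp (rank 986). SH2D3C, an adaptor of this group, had 4, 22, 10 and 15 peaks within 100 kb, and DOCK8, at the 9p tip, had none.

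Of 20 neuronal genes, 13, 16, 12 and 11 had a peak within 100 kb (65%, 80%, 60% and 55%, beside 48.7%, 80.6%, 65.9% and 71.1% of all chromosome 9 genes). Of the 20, 15 lie on 9q, where all genes had 58.3%, 87.9%, 80.3% and 83.6%. A peak within 10 kb was found at 6, 8, 6 and 8 of the 20, beside 10.6%, 39.6%, 31.3% and 35.6% of all chromosome 9 genes. Peaks within 10 kb in more than 1 list were found at 7 of the neuronal genes, and the share of all genes with this is not reported here. NTNG2, a netrin of axon guidance, had them in all 4 lists, with the nearest of the overexpressed Perseus list at 180 bp (rank 377). GRIN1, a glutamate receptor subunit, had 0, 15, 7 and 14 peaks within 100 kb. KCNT1, DNM1, OLFM1 and LHX3 were also among them, and SH3GL2, LINGO2 and PTPRD, all on 9p, had no peak within 100 kb. Of 14 tumour and growth genes, 6, 9, 10 and 12 had a peak (42.9%, 64.3%, 71.4% and 85.7%, beside the same shares of all genes). TSC1 had peaks at 2161 to 2261 bp in all 4 lists, which are those of the GFI1B site. NOTCH1 had 3, 15, 3 and 8 peaks within 100 kb, SET 2, 14, 9 and 7, and FANCC 1, 1, 2 and 3. The kinase gene JAK2 on 9p had none in any list.

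The gene clusters gave larger counts of genes from few peaks. Of 17 interferon genes on 9p, 5 and 16 had a Millipore peak within 100 kb at basal and overexpressed dosage (29.4% and 94.1%), and 0 had a Perseus peak. All 9p genes had 24.7%, 62.6%, 30.0% and 39.6%. The Millipore counts rested on 1 and 4 peaks, of which the best ranked 1657 and 5819. Of 26 olfactory receptor genes, 11, 20, 9 and 12 had a peak (42.3%, 76.9%, 34.6% and 46.2%), from 4, 13, 8 and 8 peaks. Of these genes 23 lie on 9q, where all genes had 58.3%, 87.9%, 80.3% and 83.6%. Over the 6 functional lists, 25 of 45 genes on 9q and 1 of 19 on 9p had a peak within 100 kb in all 4 lists. Of the same genes, 0 of 45 and 11 of 19 had none in any list. Over all genes of the chromosome the 2 shares were 36.4% and 10.2%, and their split by arm is not reported here. The member on 9p with peaks near it in all 4 was UNC13B, of the 9p bin at 35 to 40 Mb.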

How the data were processed

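ChIP-seq mapped SF-1 binding in the H295R/TR SF-1 line at basal and overexpressed SF-1 dosage with 2 antibodies. The authors mapped reads to hg19 with ELAND v2 and called peaks with SeqPeak of CisGenome v2, pooling 3 libraries of a group against input (read extension 150 bp); the submitters' processing notes name CASAVA 1.6. Each of the 4 deposited lists holds position, a rank and a score; the deposited score, always 1000, was not used. Starts fall on a grid of 50 bp. The lists carry no read counts, copy number or depth, and input DNA, which has no list, was not used.

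From the lists, peaks on chromosome 9 more than 1 Mb from N runs of 1 Mb or more were kept, with the same rule on the other autosomes. Positions were compared with GRCh37, the hg19 assembly, and with GENCODE version 44 mapped to it. For a TSS the outermost annotated start of a protein-coding gene was taken. Shares carry Wilson, differences Newcombe, densities exact Poisson and ratios of odds ratios Woolf intervals, all at 95%. Motifs were searched on either strand. No test was made between lists, since each group is 1 list. The members and gene lists were chosen with earlier results of these data known. The text names the 3 best-ranked peaks of each list, the 5 sites of all 4 lists with the best worst rank, the peaks within 100 kb of the NR5A1 TSS, the 3 densest and 3 sparsest bins, listed genes with a peak within 10 kb in at least 2 lists or none within 100 kb in any, and the genes within 500 kb of NR5A1; SF-1 sites such as those at GOLGA1 and BARHL1 and the genes with most peaks were named after their values were seen. Some sites and genes that this rule names are not reported here. Overlap, motif, distance and interval code was tested on simulated data. Software was Python 3.11.15, numpy 2.4.6, pandas 2.3.3, scipy 1.17.1 and pysam 0.24.0.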

Additional observations from a re-analysis of the deposited data

Results flagged for a closer look

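The share of autosomal peaks on chromosome 9 changed with dosage differently for the antibodies: the ratio of the odds ratios, Millipore over Perseus, was 1.23 (1.04 to 1.46). The share of chromosome 9 peaks within 1 kb of a TSS did so too, with odds ratios of 2.59 for Millipore and 1.03 for Perseus and a ratio of 2.52 (1.41 to 4.48). These intervals cover counting error over peaks and not the spread between libraries. For the share of peaks on the long arm the ratio was 1.47 (0.906 to 2.40) and for the SF-1 consensus 0.817 (0.530 to 1.26), both within counting error.

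Peaks that the distance to the N run had left out were found with Perseus only, 7 in the basal list and 5 in the overexpressed list. All lay on the 9q side, at 4.24 (1.71 to 8.74) and 3.03 (0.984 to 7.07) per Mb over 1.65 Mb, with best ranks of 96 and 245. Both Millipore lists had 0 there, which allows up to 2.24 per Mb.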

How the results depend on the processing

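Of 128 alternative values, 76 moved by less than their interval or 1.5 times and 52 by more. Chromosome 9 stayed denser than the other autosomes in all 4 lists under every alternative tried. No alternative left out a library and no paired analysis was possible because each group is 1 list of pooled libraries. Depth is unknown from the lists.

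The better-ranked 50% of each list gave density ratios of 2.31 and 2.64 (Millipore, basal and overexpressed) and 3.03 and 3.15 (Perseus), antibody shares of 10.5% (basal Millipore), 5.76% and 21.1% (Perseus), a consensus share of 15.02% (overexpressed Millipore) and TSS shares of 28.5% and 29.5% (Perseus). With all lists shortened to 4393 peaks the density ratio was 2.87, 2.82 and 2.89 in the 3 longer lists, the dosage share 10.03% (basal Millipore), the antibody share 18.5% and 18.9% and the consensus share 16.7% (overexpressed Millipore and Perseus; consensus Millipore only), and the TSS share 29.3% (overexpressed Perseus). Densities over chromosome length with N gave ratios of 2.00, 2.13 and 2.15 in those lists, and autosomes of like size 2.41 (overexpressed Millipore).

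Asking for an overlap of 50% of both peaks gave dosage shares of 10.6%, 3.21%, 26.7% and 23.2% and antibody shares of 9.73%, 8.89%, 5.17% and 13.6%. Centres within 500 bp gave antibody shares of 18.97% and 28.8% at overexpressed dosage. Starts of all transcripts gave TSS shares of 10.9%, 22.8%, 33.8% and 33.1%, and a distance of 10 kb gave 18.8%, 35.1%, 39.4% and 42.98%, with 84, 315, 249 and 283 genes. A stricter form of 8 letters, without the first letter and with only T in the variable place and A at the end, gave consensus shares of 13.1%, 6.97%, 14.2% and 11.5%. Bins of 1 Mb had a highest density of 13.7, 87.4, 32.6 and 45.3 peaks per Mb.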
